A study of Homo sapiens with 16 samples.

Results

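KMS12PE is an established human multiple myeloma cell line with the t(11;14) translocation, which puts the cyclin gene CCND1 under the control of an immunoglobulin enhancer. Clone A is a population grown from 1 single KMS12PE cell that survived high-dose venetoclax (a DTEP clone in the labels, which do not spell out the abbreviation), and it is compared here with the parental population. The comparison uses the 2 clone A libraries and the 2 parental libraries, replicates 1 and 3 of each, which are 4 of the 16 libraries of the series. They were chosen by cell line and population label alone. The other KMS12PE libraries, 2 each of resistant clones C and D, entered the statistical fit and served to show where clone A differs from other clones selected in the same way. Per the labels' protocols, all populations were grown in RPMI-1640 with serum and the clones were maintained in 100 nM venetoclax, whereas a dose for the parental cells is not stated. Clone A is 1 clone, so drug, selection and single-cell origin cannot be told apart in its difference from parental cells. The labels do not say whether the 2 libraries of a population came from separate cultures, and the p-values measure the spread between these libraries, which may be technical.

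Venetoclax is a small molecule that fills the groove of BCL2 with which this protein holds back pro-apoptotic partners such as BIM. Freed BIM activates BAX and BAK, which open the mitochondrial outer membrane and start the caspase cascade. MCL1 and BCL-XL can hold the same partners without binding the drug, and NOXA, the product of PMAIP1, binds and neutralises MCL1. Myeloma cells with t(11;14) are known for their dependence on BCL2, and the series asks whether resistance in such clones comes with changes of the genome or of transcription.

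Total counts were 9081983 and 12796229 in the clone A libraries and 5831289 and 6340658 in the parental libraries, which were the smallest of the line. A count of 3 corresponded to 0.232 to 0.527 CPM in these 4 libraries, where CPM is counts scaled to library sizes after TMM correction. Both replicate pairs differed by more than sampling noise (chi-square per degree of freedom 6.07 in clone A and 5.19 in parental cells). The plasma cell regulators PRDM1, IRF4 and XBP1, the antigens SDC1, CD38, TNFRSF17 and SLAMF7, and CCND1 were all measured in all 4 libraries, with CCND1 between 638 and 709 CPM. Of the marker lists of other cell types, 3 of 18 T and natural killer cell genes were among the genes analysed (CD3G, CD8A and CD247). Their summed level was 5.26 to 6.97 CPM in clone A and 5.81 to 6.68 CPM in parental cells. For monocytes and granulocytes it was 1 of 15 (CD68), at 1.01 CPM in both clone A libraries and at 1.41 and 2.11 CPM in the parental libraries. For stroma, endothelium and epithelium it was 3 of 15 (PECAM1, EPCAM and CDH1), at 107 CPM in both clone A libraries and at 110 and 119 CPM in the parental libraries. No red cell or platelet gene was among them (0 of 10).

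In the main fit, which has no replicate block, few genes passed between clone A and parental cells, several of them with a large fold change. Of 12279 genes tested, 26 were higher (0.212%) and 29 lower (0.236%) in clone A, at an adjusted p under 0.05 in edgeR's quasi-likelihood test with Benjamini-Hochberg adjustment, and a gene that passed is called changed here. The 55 genes are 0.448% of those tested. In 41 of the 55 the fitted change exceeded 1 on the log2 scale, and the median over all genes tested was 0.001. All 55 had clone A libraries that lay on 1 side of both parental libraries, as did 36.8% of all genes tested. In bulk RNA, a change in the share of cells that express a gene and a change in the RNA per cell cannot be told apart. With replicate number as a block in the fit, 227 genes were higher (1.85%) and 221 lower (1.80%), which is 3.65% in all, and the 55 were among them. A difference given as passing only with the block is from that fit. Of the 55 genes, 18 also passed with any 1 of the 4 libraries left out. These were the 10 higher genes CCR9, LIX1, CALCRL, CADM1, DAZL, SYT11, THEMIS, IGLL5, IGLC1 and NET1 and the 8 lower genes LINC00958, CD163L1, CD44, AFAP1-AS1, ARMCX3, YOD1, POU2AF1 and SNTB1. Counts of changed genes ran from 11 to 13 higher and from 9 to 13 lower with 1 library left out.

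**Figure D1:**
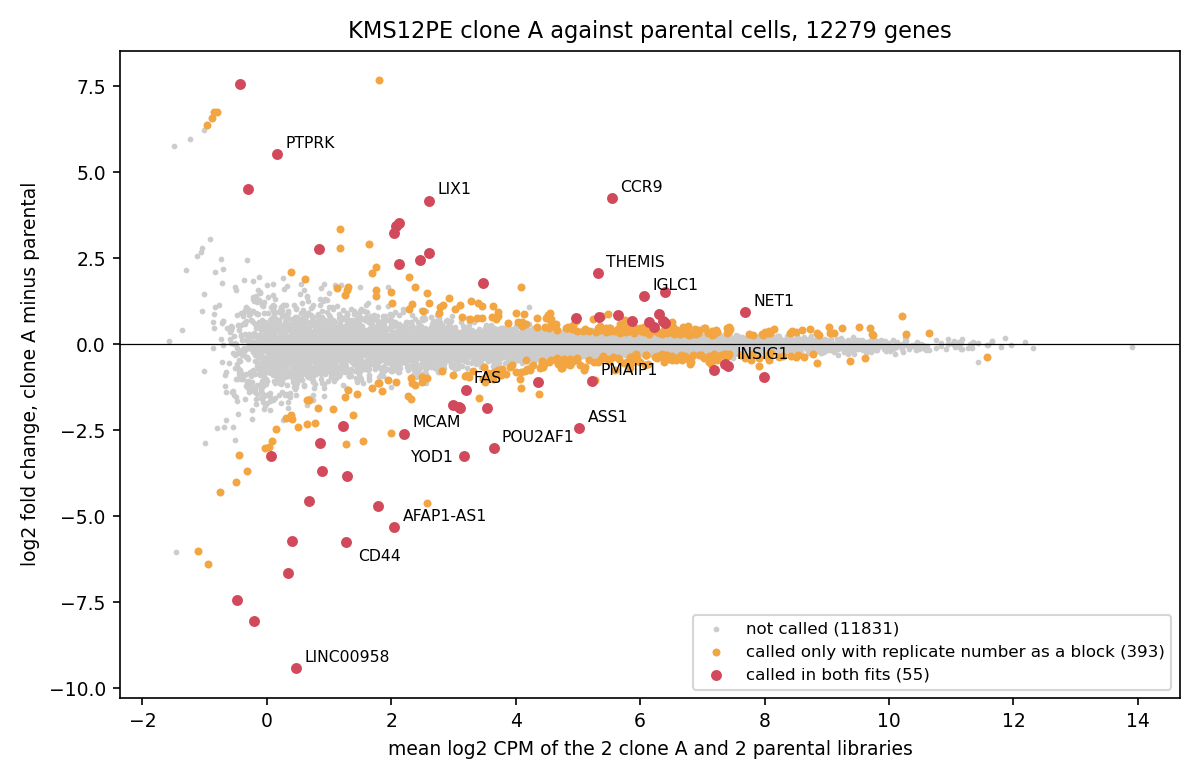
Fitted log2 fold change of clone A against parental cells (vertical axis) by mean log2 CPM over the 4 libraries (horizontal axis), 1 point per gene. The 55 genes called without the block are red, those called only with replicate number as a block are orange, and the fitted change of genes with counts near 0 in 1 population, such as LINC00958, depends on the prior count.

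CCR9 had the largest rise among called genes whose mean log2 CPM was 3 or more. This chemokine receptor, which draws lymphocytes to the gut, stood at 211 and 192 CPM in the clone A libraries and at 10.9 and 10.4 CPM in the parental libraries (log2FC 4.24 ± 0.17 SE, adjusted p = 2.43e-05). The clone A libraries lay far above the parental ones and close to each other. CCR9 lies at chr3:45886504-45903177. THEMIS, a signalling protein known from T cell selection in the thymus, was at 87.5 and 76.0 CPM against 21.6 and 17.3 CPM (log2FC 2.07 ± 0.15, adjusted p = 0.000689). Its neighbour on chromosome 6, PTPRK, a receptor tyrosine phosphatase, had 94 counts over the clone A libraries and 1 over the parental ones. That is a ratio of 51.9 (exact 95% interval 9.10 to 2073, counting error only; adjusted p = 0.00515, and 0.0645 without parental replicate 1). NET1, a guanine nucleotide exchange factor for small GTPases, had 291 and 274 CPM in clone A and 150 and 148 CPM in parental cells (log2FC 0.92 ± 0.09, adjusted p = 0.00216). CALCRL, the receptor subunit for calcitonin gene-related peptide and adrenomedullin, was at 13.9 and 13.2 CPM against 1.23 and 1.10 CPM (log2FC 3.53 ± 0.31, adjusted p = 0.00155). The adhesion molecule CADM1 stood at 13.1 and 12.5 CPM against 1.41 and 0.943 CPM (log2FC 3.44 ± 0.32, adjusted p = 0.00191). In all of these genes the 2 populations did not overlap, as in all 55 called genes and in 36.8% of all genes tested.

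Other genes that rose have their known roles outside lymphocytes. LIX1 went from 1.58 and 1.10 CPM in the parental libraries to 26.1 and 22.5 CPM in clone A (log2FC 4.18 ± 0.29, adjusted p = 0.00134). DAZL, a germ cell RNA-binding protein, went from 1.05 and 1.41 CPM to 11.7 CPM in both clone A libraries (adjusted p = 0.00191). SYT11, a synaptotagmin of vesicle traffic, went from 1.93 and 2.67 CPM to 15.7 and 13.5 CPM (adjusted p = 0.00176). LIX1, DAZL and SYT11 were thus near the floor of detection in parental cells and at a low level in clone A. SEMA5A, a guidance molecule, had 0 counts over the parental libraries and 53 over those of clone A, at least 9.76-fold higher against 3 counts over the population (adjusted p = 0.0349). ARHGAP24, which switches Rac off, had 1 count and 47 counts, a ratio of 26 (4.44 to 1047). LEFTY2, a secreted inhibitor of Nodal signalling, was at 68.0 and 65.3 CPM against 37.2 and 37.5 CPM (log2FC 0.83 ± 0.09, adjusted p = 0.00636). FBP1, a rate-limiting enzyme of gluconeogenesis, was at 21.2 and 19.4 CPM against 4.74 and 7.07 CPM (log2FC 1.77 ± 0.26, adjusted p = 0.0268). Its 2 parental libraries differed from each other more than the 2 of clone A did. With any 1 of the 4 libraries left out, adjusted p was 0.0697 to 0.101 for LEFTY2, 0.104 to 0.223 for FBP1, 0.159 to 0.202 for SEMA5A and 0.0978 to 0.151 for ARHGAP24, which was also not called with DESeq2.

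Light chain genes of the lambda locus were higher. IGLL5 had 150 and 136 CPM in clone A and 55.2 and 44.3 CPM in parental cells (log2FC 1.52 ± 0.12, adjusted p = 0.00176). IGLC1, the lambda constant segment, had 111 and 106 CPM and 45.0 and 37.2 CPM (log2FC 1.4 ± 0.12, adjusted p = 0.00134). IGLC1 (chr22:22895375-22895834) lies inside IGLL5 (chr22:22887780-22896107) on the same strand, so the split of reads between them is uncertain and they are best read as 1 signal. PLEKHA2, which binds membrane phosphoinositides, also rose (111 and 103 CPM against 63.6 and 53.4 CPM, log2FC 0.87, adjusted p = 0.0167), as did SAMD9L, an interferon-inducible growth suppressor (105 and 102 CPM against 63.1 and 66.5 CPM, log2FC 0.68, adjusted p = 0.0409). SAMD9L was the only one of 25 interferon-stimulated genes that was called. Its neighbour SAMD9 passed only with the block (log2FC 0.35, adjusted p = 0.0108, against 0.497 without it), and the list had a median of -0.09. With any 1 library left out the adjusted p of PLEKHA2 was 0.0551 to 0.180 and that of SAMD9L 0.233 to 0.306, and SAMD9L was also not called with upper-quartile scaling.

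**Figure D2:**
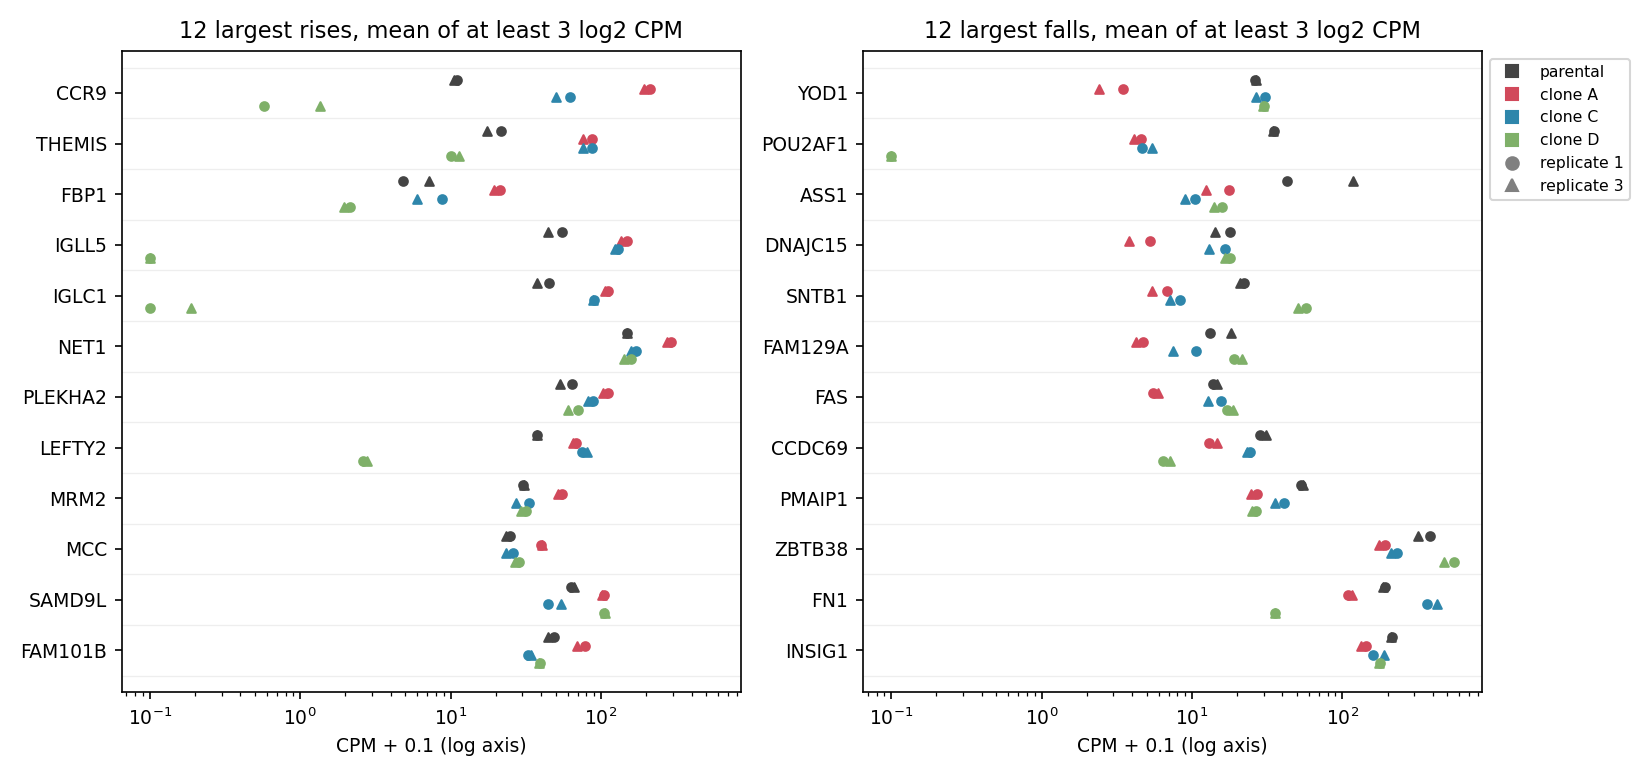
CPM in each KMS12PE library (log axis, with 0.1 added) of the 12 largest rises and the 12 largest falls in clone A among called genes whose mean log2 CPM was 3 or more. Colours mark the 4 populations and symbols the replicate; the clone A points sit right of both parental points on the left side and left of them on the right side.

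Genes that fell include a B cell coactivator and cell surface genes. Of the 8 tested genes of B cell identity and receptor signalling, a list without POU2AF1, 0 were lower in either fit. POU2AF1, the B cell coactivator of octamer-binding transcription factors, went from 35.3 and 34.2 CPM in the parental libraries to 4.49 and 4.02 CPM in clone A (log2FC -3.03 ± 0.20, adjusted p = 0.00109). CD44, the receptor for hyaluronan, went from 13.7 and 12.4 CPM to 0.225 and 0.232 CPM, at or under the level of 3 counts (log2FC -5.75 ± 0.48, adjusted p = 0.00134). Both libraries of clone A were near 0 for CD44 and far below both parental libraries. The tetraspanin CD53 went from 13.7 and 14.8 CPM to 4.49 and 3.87 CPM (log2FC -1.77, adjusted p = 0.0315). MCAM, an adhesion molecule of the immunoglobulin superfamily, went from 10.9 and 10.7 CPM to 1.46 and 2.01 CPM (log2FC -2.60, adjusted p = 0.00690). NCKAP1L, the blood cell subunit of the actin-regulating WAVE complex, went from 6.15 and 4.71 CPM to 0.337 and 0.464 CPM (adjusted p = 0.00690). FN1, which encodes fibronectin, fell less steeply, from 191 and 187 CPM to 109 and 115 CPM (log2FC -0.75, adjusted p = 0.0122). Of the 28 adhesion and migration genes tested, CD44 and CD53 were lower and PTPRK higher, and the median was 0.02. Of all genes tested 0.448% were called. With the block 21.4% of the list passed, beside 3.65% of all genes. CCR2, LGALS1 (both lower) and SELPLG (higher) passed only with the block (adjusted p = 0.0412, 0.0121 and 0.0486, against 0.543, 0.270 and 0.422 without it). With any 1 of the 4 libraries left out, adjusted p was 0.196 to 0.342 for CD53, 0.0604 to 0.0998 for MCAM and 0.0996 to 0.191 for FN1. For NCKAP1L it was 0.0482 without parental replicate 3 and 0.0761 to 0.102 without any of the other 3 libraries.

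YOD1, a deubiquitinase of endoplasmic reticulum quality control, fell from 26.3 and 26.6 CPM to 3.37 and 2.32 CPM (log2FC -3.24 ± 0.19, adjusted p = 0.000177). The gene lies at chr1:207043849-207052980, inside PFKFB2 (chr1:207034366-207081024) and on the opposite strand. PFKFB2, which sets the level of an activator of glycolysis, went from 3.16 and 5.03 CPM to 0.674 and 0.464 CPM (adjusted p = 0.0147). Strandedness is not given in the sources used here, so reads of the 2 genes may not be told apart. AFAP1-AS1, an RNA antisense to AFAP1, went from 25.5 and 19.6 CPM to 0.562 and 0.542 CPM (log2FC -5.32 ± 0.28, adjusted p = 0.0001), and the same limit holds for it. ARMCX3, a protein of the mitochondrial outer membrane, went from 16.9 and 16.3 CPM to 0.225 and 0.929 CPM (log2FC -4.69 ± 0.39, adjusted p = 0.00191). Its neighbour on the X chromosome, ARMCX6, had 68 counts over the parental libraries and 2 over those of clone A, 61.5-fold lower (16.4 to 518; adjusted p = 0.00701). Clone A had 0 counts over both libraries for 3 genes. The long noncoding RNA LINC00958 had 108 counts in parental cells, which makes it at least 65.2-fold lower in clone A. RUBCNL, a regulator of autophagy, had 41 (at least 24.7-fold), and the phosphoinositide phosphatase MTMR8 had 27 (at least 16.3-fold). The scavenger receptor CD163L1 had 72 counts in parental cells and 1 in clone A, 130-fold lower (22.7 to 5218). With any 1 of the 4 libraries left out adjusted p was 0.102 to 0.147 for RUBCNL and 0.0527 to 0.0956 for MTMR8. For ARMCX6 it was 0.0645 and 0.0897 without parental replicates 1 and 3. For PFKFB2 it was 0.0386 without parental replicate 1 and 0.102 to 0.178 without any of the others.

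Further genes among the falls have varied known functions. ASS1, the arginine synthesis enzyme, was at 42.5 and 117 CPM in the parental libraries and at 17.4 and 12.3 CPM in clone A (log2FC -2.44 ± 0.40, adjusted p = 0.0477). The parental libraries of ASS1 differed widely from each other. Leaving out parental replicate 1 gave an adjusted p of 0.00474, which was 0.0996 to 0.392 without any of the other 3 libraries. DNAJC15, a co-chaperone of the mitochondrial inner membrane, went from 17.7 and 14.1 CPM to 5.17 and 3.71 CPM (log2FC -1.86 ± 0.23, adjusted p = 0.0120). Without clone A replicate 3 or either parental library its adjusted p was 0.0607 to 0.132. SNTB1, a syntrophin of the dystrophin complex, went from 22.1 and 20.9 CPM to 6.74 and 5.34 CPM (log2FC -1.84 ± 0.17, adjusted p = 0.00176). ZBTB38, a zinc finger protein that binds methylated DNA, went from 383 and 320 CPM to 191 and 174 CPM (log2FC -0.94 ± 0.12, adjusted p = 0.0125, and 0.0997 to 0.169 without any of the libraries other than parental replicate 3). FAM129A and CCDC69 were lower too (log2FC -1.84 and -1.10, adjusted p = 0.0167 and 0.0122), but with 1 library left out their adjusted p was 0.0548 to 0.178 and 0.0881 to 0.190. A further 5 called genes were all low. SHROOM2, MVB12B and RALGPS2 were higher (at most 13.8 CPM in clone A, log2FC 2.44, 2.34 and 2.76), and CCDC187 and CTD-2130O13.1 were lower (at most 7.07 CPM in parental cells, log2FC -4.56 and -3.27). Their adjusted p was 0.00515, 0.0140, 0.0388, 0.0314 and 0.0464, and each of the 5 lost its call without at least 1 library (up to 0.0981, 0.132, 0.318, 0.342 and 0.392).

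A smaller set of genes distinguished clone A from parental cells and from both other resistant clones. Clone A was called higher than parental cells, clone C and clone D alike in 9 genes (0.0733% of those tested) and lower in 10 (0.0814%), 0.155% in all. The contrasts share the clone A libraries, so these counts are not independent evidence. YOD1 stood at 30.5 and 26.7 CPM in clone C and at 30.1 and 29.4 CPM in clone D, against at most 3.37 CPM in clone A (log2FC -3.35 against C and -3.41 against D, adjusted p = 0.000159 and 1.32e-05). All 6 libraries outside clone A lay within 26.3 to 30.5 CPM. NET1 had 170 and 159 CPM in clone C and 157 and 142 CPM in clone D, all below the 274 CPM of the lower clone A library (log2FC 0.78 and 0.92, adjusted p = 0.00286 and 0.000374). MCAM was at 11.7 and 18.9 CPM in clone C and at 16.6 and 15.1 CPM in clone D (adjusted p = 0.00109 and 0.000299), and only clone A was below 3 CPM. FAS, the death receptor, had 15.6 and 12.7 CPM in clone C and 17 and 18.6 CPM in clone D, against 5.39 and 5.88 CPM in clone A (adjusted p = 0.00652 and 0.000755). MRM2, a methyltransferase of mitochondrial ribosomal RNA, stood between 27.3 and 32.9 CPM in the 6 other libraries and at 55.2 and 51.6 CPM in clone A. The replication fork remodeller HLTF and MCC, named for its mutation in colorectal cancer, were higher in the same way (log2FC against parental cells 0.65 and 0.75). FAM101B, which organises actin filaments, was higher by 0.66. With any 1 of the clone A and parental libraries left out, the adjusted p against parental cells was 0.159 to 0.261 for MRM2, 0.124 to 0.331 for HLTF, 0.162 to 0.278 for MCC and 0.127 to 0.323 for FAM101B.

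In CCR9, LIX1, CALCRL and FBP1 the other clones were not alike, and clone A was the highest of the 4 populations. CCR9 had 62.2 and 50.4 CPM in clone C and 0.473 and 1.25 CPM in clone D, so its order was clone A, clone C, parental and clone D, with no overlap between neighbours. LIX1 followed with 6.79 and 5.22 CPM in clone C and 0 counts in clone D. CALCRL had 4.05 and 5.93 CPM in clone C and 3 counts over both libraries of clone D. FBP1 in clone C (8.64 and 5.86 CPM) overlapped its parental level. Lower in clone A than in each other population were also CSMD1, DNAJC15, PFKFB2, MAGEC1, CD163L1, LINC00958 and MTMR8. MAGEC1, a cancer-testis antigen often found in myeloma, stood at 0.562 and 0.542 CPM in clone A, 2.64 and 2.82 CPM in clone C, 7.10 and 7.21 CPM in clone D and 10.7 and 5.34 CPM in parental cells. Without clone A replicates 1 and 3 the adjusted p of MAGEC1 against parental cells was 0.0801 and 0.0956, and for CSMD1, a complement regulator, it was 0.0850 to 0.190 without any 1 library. With the block the counts were 45 higher and 51 lower. With 1 of the 8 libraries left out they were 2 to 10 higher and 2 to 10 lower. Without clone A replicate 1 they were 2 and 4, without clone A replicate 3 they were 3 and 2, without parental replicate 1 they were 3 and 5, and without parental replicate 3 they were 3 and 3. Without clone C replicate 1 they were 5 and 5, and without clone C replicate 3 they were 4 and 7.

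**Figure D3:**
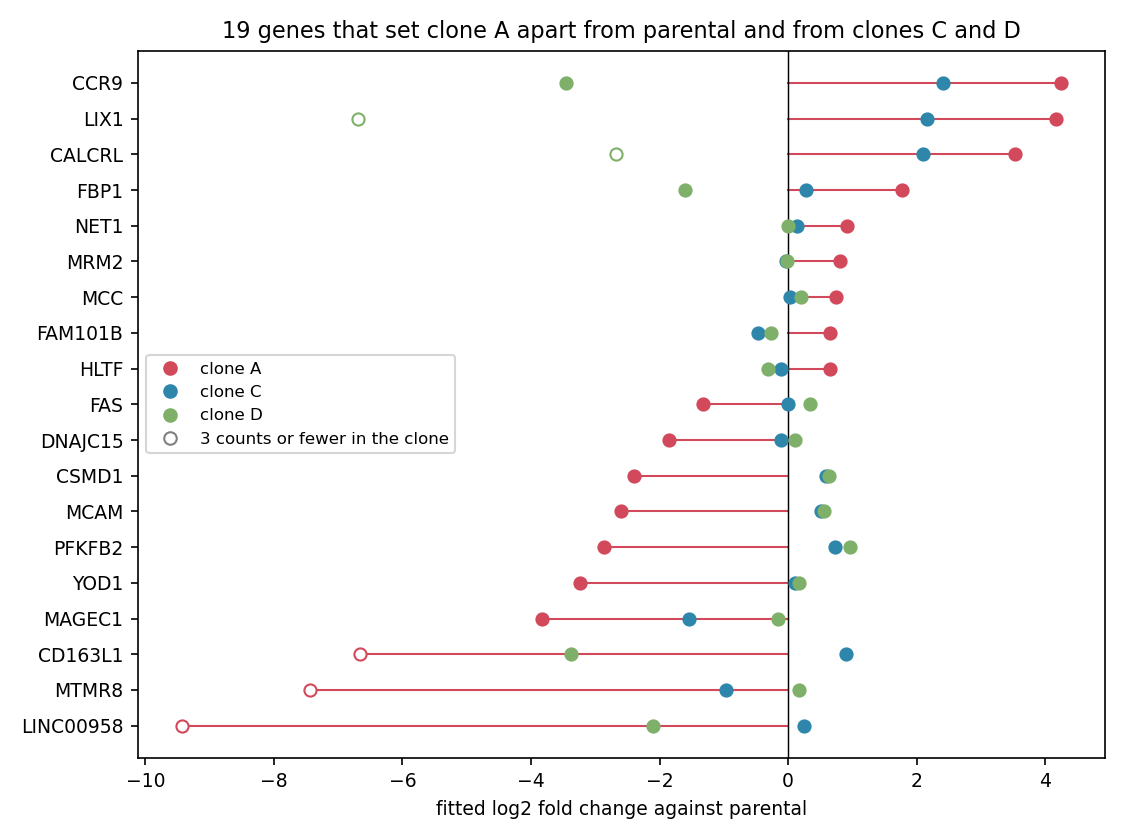
Fitted log2 fold change against parental cells of clones A, C and D for the 19 genes in which clone A was called apart from each of the other 3 populations. Open points have 3 counts or fewer in the clone, and their position depends on the prior count; clones C and D lie near 0 for NET1, MRM2, MCC, YOD1, FAS and DNAJC15 and far from it for CCR9, LIX1 and CALCRL.

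The direct comparison with the other clones gave 238 genes higher (1.94%) and 122 lower (0.994%) in clone A than in the mean of clones C and D, 2.93% in all. Against clone C alone 97 were higher (0.790%) and 65 lower (0.529%), 1.32% in all. Against clone D alone 486 were higher (3.96%) and 345 lower (2.81%), 6.77% in all. BCL2 was lower in clone A, at 634 and 600 CPM against means of 978 CPM in clone C and 810 CPM in clone D (log2FC -0.66 and -0.39, adjusted p = 0.00749 and 0.0359). JCHAIN, which joins polymeric antibodies, was higher than in clone D (log2FC 0.94, adjusted p = 0.00478), and against clone C it passed only with the block (log2FC 0.58, adjusted p = 0.000337, against 0.129 without it). TNFRSF17, which encodes BCMA, was lower than in clone D (log2FC -1.32, adjusted p = 0.000126), with 0.05 against clone C (adjusted p = 0.993). SYK, the kinase next to the B cell receptor, had 196 counts in clone A, 1 in clone C and 0 in clone D (adjusted p = 0.00118 and 0.000465). It was at 10.9 and 7.66 CPM in clone A and at 1.93 and 2.83 CPM in parental cells, where the difference passed only with the block (log2FC 1.94, adjusted p = 0.000848, against 0.121 without it). With 1 of the 6 libraries of the 3 clones left out, 86 to 238 genes were higher and 37 to 130 lower. Without clone A replicate 1 these were 86 and 41, without clone A replicate 3 they were 110 and 37, and without clone C replicates 1 and 3 they were 151 and 156 higher. With the block 730 were higher and 670 lower (5.95% and 5.46%, 11.4% in all).

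In the BCL2 family 1 gene of 16 tested was called. PMAIP1, which encodes the MCL1 antagonist NOXA, fell from 53.1 and 55.0 CPM in the parental libraries to 27.2 and 24.5 CPM in clone A (log2FC -1.07 ± 0.12, adjusted p = 0.00515). Both clone A libraries were near the level of clone D (25.9 CPM) and below that of clone C (38 CPM). Without clone A replicate 3, parental replicate 1 or parental replicate 3 its adjusted p was 0.0956, 0.0542 and 0.0751. Of the 4 anti-apoptotic genes 0 were called, with the block as well. BCL2 was at 634 and 600 CPM in clone A and at 678 and 723 CPM in parental cells (log2FC -0.18 ± 0.09, adjusted p = 0.757). MCL1 was at 428 and 453 CPM against 383 and 411 CPM (log2FC 0.15 ± 0.09, adjusted p = 0.838). BCL2L1, which encodes BCL-XL, was at 18 and 15.5 CPM against 14.4 and 14.0 CPM (log2FC 0.23 ± 0.15, adjusted p = 0.884), and BCL2L2 had log2FC 0.21. The median of the 4 was 0.18. BCL2L11, which encodes BIM, was at 196 and 190 CPM against 177 and 192 CPM (log2FC 0.06 ± 0.08, adjusted p = 0.985). The effectors BAX and BAK1 had log2FC 0.16 and 0.14 (adjusted p = 0.878 and 0.962), and BID had 0.22 (adjusted p = 0.823). The BH3-only genes BBC3, which encodes PUMA, and BMF were low, at 1.91 to 2.48 CPM and 3.82 to 5.09 CPM over the 4 libraries (log2FC -0.07 and -0.23, adjusted p = 0.998 and 0.985). The remaining family genes, BIK, BAD, BCL2L13, BNIP3 and BNIP3L, had log2FC between -0.09 and 0.50 and were called in neither fit. A p that misses the threshold does not show that these levels were equal.

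FAS, a receptor of the extrinsic death pathway, was the only gene called of a list of 20 caspases, their inhibitors and death receptors. It went from 13.7 and 14.6 CPM to 5.39 and 5.88 CPM (log2FC -1.32 ± 0.18, adjusted p = 0.0179, and 0.128 to 0.215 with any 1 library left out). FAS is also a target of p53. Of 24 p53 targets it was the only one called, while CDKN1A, which encodes the cell cycle inhibitor p21, passed only with the block (log2FC -0.57, adjusted p = 0.00636, against 0.143 without it). The median of the p53 targets was -0.03.

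Genes of sterol and fatty acid synthesis lay lower in clone A. SREBP transcription factors drive these pathways when membranes lack sterol, and INSIG1 is both their target and the protein that keeps them in the endoplasmic reticulum. INSIG1 went from 213 and 210 CPM to 143 and 133 CPM (log2FC -0.62 ± 0.10, adjusted p = 0.0379), and FADS1, a desaturase of polyunsaturated fatty acids, from 204 and 197 CPM to 136 and 133 CPM (log2FC -0.57 ± 0.08, adjusted p = 0.0179). These were the only genes called of 24 sterol and 19 fatty acid genes tested. With any 1 library left out their adjusted p was 0.217 to 0.392 and 0.110 to 0.244, and INSIG1 was also not called with the filter of 10 counts in every library. With the block 7 sterol genes were lower and 0 higher, and 5 fatty acid genes were lower and 1 higher, which is 29.2% and 31.6% of the lists against 3.65% of all genes. The median was -0.24 for the sterol list, with 19 of 24 genes below 0, and -0.15 for the fatty acid list, with 13 of 19 below 0, beside 0.001 over all genes. A lean to 1 side was not particular to these lists. Below 0 were also 66 of 79 ribosomal protein genes and 34 of 40 G2/M genes, but only 6 of 21 glycolysis genes. The ribosomal and G2/M medians were nearer to 0 (-0.08 and -0.10), and 0 genes of these 2 lists were lower with the block. The fatty acid median was close to that of MHC class II genes (-0.14). Replicates 1 and 3 taken as pairs gave sterol medians of -0.24 and -0.21. For the fatty acid list they were -0.22 and -0.03. For the ribosomal list they were -0.006 and -0.14, and for the G2/M list 0.02 and -0.17. Against the same parental libraries the sterol median was -0.04 in clone C and -0.16 in clone D, and the fatty acid median was -0.13 and -0.09. Over the alternatives run the clone A median was -0.31 to -0.17 for the sterol list and -0.18 to -0.02 for the fatty acid list.

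The sterol genes that passed only with the block include enzymes of early and later steps. HMGCS1, which makes the precursor of mevalonate, was at 71.1 and 62.7 CPM against 93.6 and 83.7 CPM (log2FC -0.41, adjusted p = 0.00696 with the block and 0.223 without it). FDPS, which makes farnesyl diphosphate, was at 214 and 207 CPM against 262 and 291 CPM (log2FC -0.39, adjusted p = 0.00273 and 0.184). FDFT1 and SQLE commit farnesyl diphosphate to sterols, and their log2FC was -0.37 and -0.47 (adjusted p with the block 0.00459 and 0.000999, and 0.215 and 0.104 without it). In each of these 4 genes both clone A libraries were below both parental libraries. This adds no support, because the genes were picked as lower, and 36.8% of all genes tested did not overlap either. Among the fatty acid genes FADS2, SCD, ACSL3 and CPT1A were lower with the block, and the phospholipase PLA2G16 was higher. FADS2 was at 208 and 180 CPM against 347 and 257 CPM (log2FC -0.64, adjusted p = 2.78e-05 with the block and 0.169 without it). It overlaps FADS1 on the opposite strand, so their reads may not be told apart. The factors SREBF1 and SREBF2 themselves had log2FC -0.26 and -0.21 and were called in neither fit. Of 21 glycolysis genes and 53 nuclear genes of oxidative phosphorylation 0 were called in either fit (medians 0.09 and 0.03).

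The promoters of 4 of these genes show what the start regions of the lower genes look like. They are the 250 bases before each start in the RefSeq table (GRCh38.p14), given on the gene's strand, with each CCAAT or ATTGG in capitals. CCAAT, read on either strand, is the letters of the box bound by NF-Y, a known partner of SREBP at sterol genes. INSIG1 (chr7:155297628-155297877, plus strand) and FADS1 (chr11:61817004-61817253, minus strand) are the called genes. HMGCS1 (chr5:43313413-43313662, minus strand) and FDPS (chr1:155308616-155308865, plus strand) passed only with the block.
INSIG1: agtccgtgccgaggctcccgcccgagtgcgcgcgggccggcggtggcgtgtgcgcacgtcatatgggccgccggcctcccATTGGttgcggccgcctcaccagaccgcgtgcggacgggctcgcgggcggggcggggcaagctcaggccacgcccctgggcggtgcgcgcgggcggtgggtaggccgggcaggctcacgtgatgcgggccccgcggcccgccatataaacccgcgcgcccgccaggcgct
FADS1: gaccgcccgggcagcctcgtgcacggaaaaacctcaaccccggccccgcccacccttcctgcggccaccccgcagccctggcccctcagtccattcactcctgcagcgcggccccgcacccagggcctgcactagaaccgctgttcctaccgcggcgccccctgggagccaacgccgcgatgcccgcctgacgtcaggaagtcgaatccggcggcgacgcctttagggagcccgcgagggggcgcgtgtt
HMGCS1: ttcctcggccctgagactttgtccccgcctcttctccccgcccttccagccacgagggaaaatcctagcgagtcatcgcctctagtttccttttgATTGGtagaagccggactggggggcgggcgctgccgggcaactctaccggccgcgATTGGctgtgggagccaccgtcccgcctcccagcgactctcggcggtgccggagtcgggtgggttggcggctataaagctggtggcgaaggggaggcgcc
FDPS: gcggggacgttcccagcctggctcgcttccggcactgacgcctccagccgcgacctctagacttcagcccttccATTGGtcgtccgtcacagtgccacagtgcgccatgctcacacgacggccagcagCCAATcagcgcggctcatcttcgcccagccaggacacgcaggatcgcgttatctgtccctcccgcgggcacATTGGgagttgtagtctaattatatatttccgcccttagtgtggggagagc
The letters occurred 1 time in the INSIG1 window, 2 times in that of HMGCS1 and 3 times in that of FDPS, and they were absent from the FADS1 window. Of the 34 sterol and fatty acid genes matched to the table (43 tested), 24 (70.6%) held the letters. Among the 12 that were lower with the block, 8 were matched and 5 of these (62.5%) held them. The share was 42.7% of the 8742 matched genes among all tested. These shares count a gene if any of its listed starts held the letters. Over all promoters in the table, each counted singly, the share was 32.0%, which is not directly comparable. The 4 windows shown are those of the most upstream start. A match is a description of letters, and its part in the level of these genes was not tested.

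**Figure D4:**
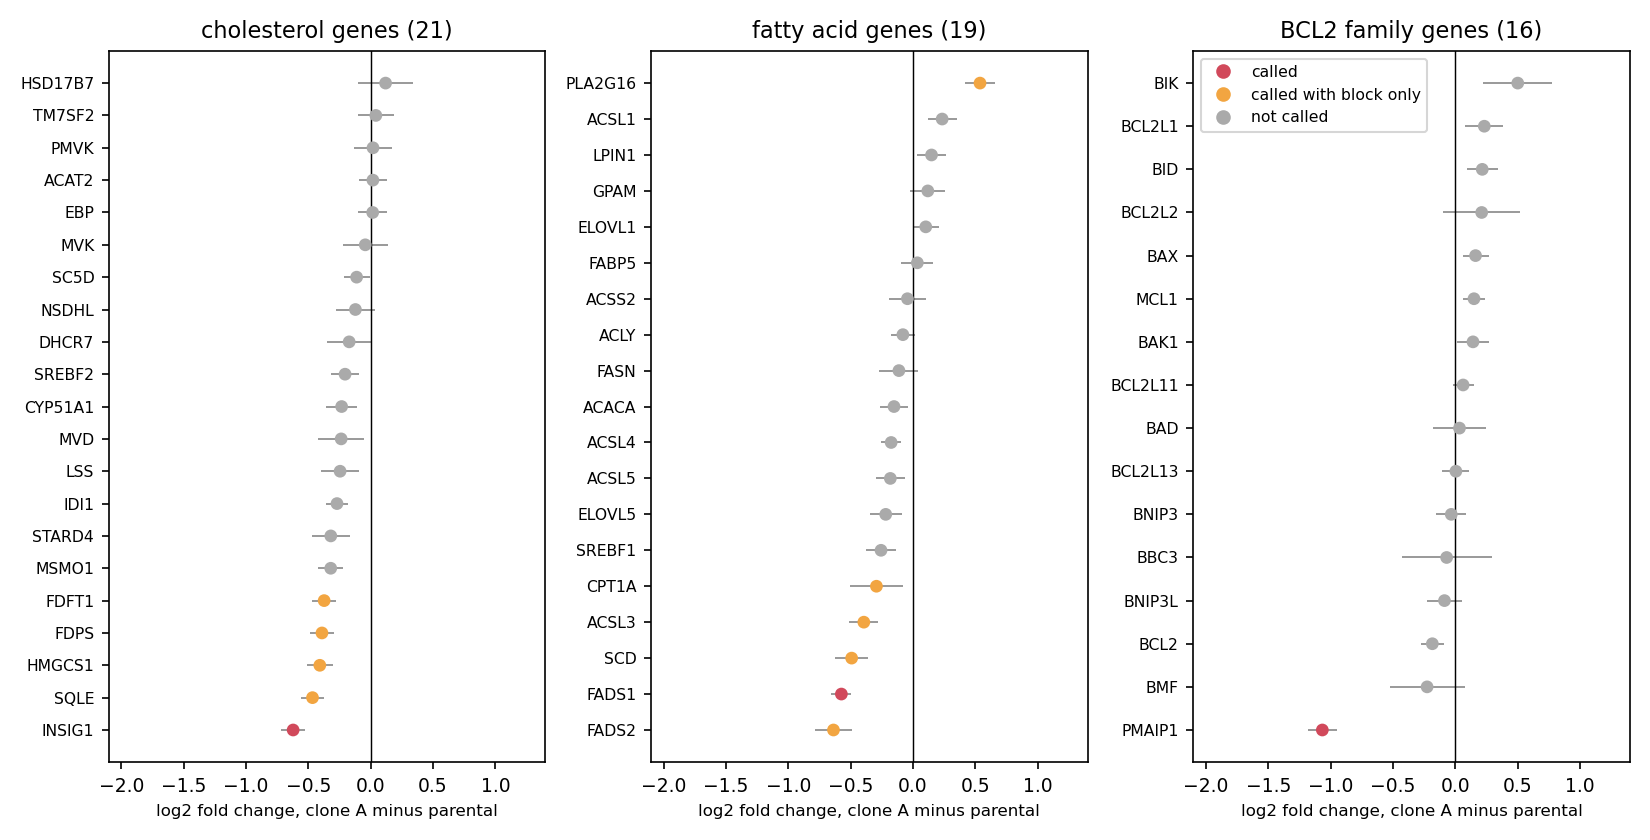
Log2 fold change of clone A against parental cells (horizontal axis, bars are ± 1 standard error) for 21 of the 24 sterol genes and for each tested gene of fatty acid synthesis and of the BCL2 family. Red points were called without the block and orange ones only with it; 16 of the 21 sterol genes shown lie left of 0, and PMAIP1 stands alone among the BCL2 family genes.

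Among plasma cell identity genes and the targets of myeloma drugs, POU2AF1 was the only call. It was 1 of 19 plasma cell genes tested (median -0.11), beside 0.448% of all genes called. Of the plasma cell list 26.3% passed with the block, and of 15 antibody and cell therapy targets 20%, beside 3.65% of all genes. These lists share genes. With the block SLAMF7 and MZB1 were lower (log2FC -0.46 and -0.35, adjusted p = 0.00649 and 0.00691, against 0.615 and 0.332 without it), and SDC1 and GAS6 were higher (0.29 and 0.48, adjusted p = 0.0408 and 0.000332, against 0.628 and 0.561). CD38, the target of daratumumab, was at 409 and 387 CPM in clone A and at 308 and 371 CPM in parental cells (log2FC 0.23 ± 0.11, adjusted p = 0.734). TNFRSF17 was at 83.9 and 75.8 CPM against 76.1 and 83.7 CPM (log2FC -0.00 ± 0.11, adjusted p = 0.998). The parental libraries of SLAMF7 lay apart, at 141 and 217 CPM, with clone A at 126 and 133 CPM. CRBN, through which lenalidomide acts, had log2FC -0.17, and its targets IKZF1 and IKZF3 had -0.22 and 0.03, none of them called in either fit. GPRC5D, a target of cell therapy, was at 1.24 and 1.32 CPM against 1.41 and 1.26 CPM (log2FC -0.05, adjusted p = 0.998). TNFRSF13C, which encodes the BAFF receptor, was lower only with the block (log2FC -1.04, adjusted p = 0.0438, against 0.654), at 1.91 and 3.33 CPM against 3.69 and 7.23 CPM. CCND1 had 0.00, MYC -0.09 and IRF4 0.09. NR3C1, the glucocorticoid receptor, was at 126 and 117 CPM against 149 and 171 CPM and passed only with the block (log2FC -0.40, adjusted p = 0.00376, against 0.176).

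Of 20 genes of MHC class II presentation 0 were called, and 5 were lower with the block (25%, median -0.14). Of all genes tested 1.80% were lower with the block, and 3.65% were called in either direction. HLA-DRA, which encodes the shared alpha subunit of the HLA-DR dimer, was at 628 and 731 CPM against 895 and 901 CPM (log2FC -0.40, adjusted p = 0.00171, against 0.215 without the block). HLA-DPB1, HLA-DMA, HLA-DMB and HLA-DQA2 were the other 4, and reads of HLA-DQA2 may be shared with HLA-DQA1. Of 25 genes of the NF-kB pathway 0 were called, and 16% passed with the block (median -0.05). With the block the lymphotoxins LTA and LTB and the subunit REL were lower, and the deubiquitinase CYLD, an inhibitor of the pathway, was higher. LTB was at 5.62 and 6.65 CPM in clone A and at 13.2 and 23.4 CPM in parental cells (log2FC -1.57, adjusted p = 2.36e-05, against 0.0809). REL was at 107 and 124 CPM against 170 and 172 CPM (log2FC -0.57, adjusted p = 8.86e-05, against 0.176). The ligand CD48 was lower only with the block as well (log2FC -0.57, adjusted p = 5.81e-05, against 0.166). Of 20 MHC class I genes 0 were called in either fit (median -0.11). Of 8 genes of B cell identity and receptor signalling 0 were called. With the block 2 were higher (25%), SYK and the transcription factor BACH2 (log2FC 0.37, adjusted p = 0.0151, against 0.295 without it). Among the interferon-stimulated genes, IFI16 was lower with the block (log2FC -0.38, adjusted p = 0.00747, against 0.185), beside the higher SAMD9 and SAMD9L. In all, 12% of that list passed with the block.

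No call was made among genes of growth and protein synthesis. Without the block 0 of 40 S-phase genes, 0 of 40 G2/M genes, 0 of 79 ribosomal protein genes and 0 of 38 proteasome genes were called, at medians of -0.00, -0.10, -0.08 and 0.03. With the block 1 S-phase gene (RRM2), 1 ribosomal gene (RPS7) and 1 proteasome gene (PSMC4) were higher. These are 2.5%, 1.27% and 2.63% of the lists, below the 3.65% of all genes called with the block. Below 0 were 66 of the 79 ribosomal, 34 of the 40 G2/M, 20 of the 40 S-phase and 11 of the 38 proteasome genes. Of 32 genes of the unfolded protein response 0 were called, 9.38% passed with the block, and the median was -0.11. With the block HERPUD1 and HSP90B1 were lower (log2FC -0.45 and -0.36, adjusted p = 0.000741 and 0.00249, against 0.0700 and 0.370) and PDIA6 was higher (0.31, adjusted p = 0.0100, against 0.456).

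Genes at the start of chromosome 2 were shifted upward as a group. Of the tested genes, 11207 had a single position in GENCODE v29 (GRCh38), and 148 windows of 20 Mb held 20 or more of them. In the window from 0 to 20 Mb of chromosome 2 the median was 0.29 over 38 genes, 34 of which lay above 0. In the next window, 20 to 40 Mb, the median was 0.26 over 95 genes, 72 of which lay above 0. At 40 to 60 Mb it was -0.05 over 47 genes. The other 146 windows lay between -0.14 and 0.14. Without the block 2 genes of the first window and 0 of the second were called. ADAM17, the protease that sheds membrane proteins such as TNF, was at 106 and 102 CPM against 68.0 and 67.7 CPM (log2FC 0.61 ± 0.09, adjusted p = 0.0278). RNASEH1, which removes RNA from RNA-DNA hybrids, was at 86.9 and 90.5 CPM against 63.2 and 61.7 CPM (log2FC 0.51 ± 0.08, adjusted p = 0.0485). With any 1 library left out adjusted p was 0.176 to 0.231 for ADAM17 and 0.223 to 0.402 for RNASEH1, which was also not called with DESeq2 or upper-quartile scaling. With the block 18 genes of the first window were higher and 1 lower (50.0%), and 35 of the second were higher and 0 lower (36.8%), beside 3.65% of all genes. ODC1, RRM2, PDIA6, RPS7, CAD and SDC1, named in the lists above or members of them, are among these genes.

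The shift at the start of chromosome 2 was seen in each pair of libraries, with medians of 0.32 and 0.28 in the first window and 0.23 and 0.21 in the second for replicates 1 and 3. Against the same parental libraries the medians were 0.57 and 0.43 in clone C and 0.00 and 0.01 in clone D. The direct difference of clone A from clone C had medians of -0.23 and -0.12, and that from clone D of 0.28 and 0.24. Chromosome 5 had the highest median of any whole chromosome (0.07 over 501 genes), and its windows up to 120 Mb had medians of 0.07 to 0.14 in clone A and of -0.04 to -0.01 in clone C and -0.06 to 0.07 in clone D. At 100 to 120 Mb clone D (0.07) was close to clone A (0.08). The first 20 Mb of chromosome 7, which hold MRM2, had a median of 0.11, and 14 of 64 genes there were higher with the block and 0 lower (21.9%), and the median was 0.04 in clone C and 0.06 in clone D. The DNA copy number of these regions was not analysed here, and its part in the shift was not tested.

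**Figure D5:**
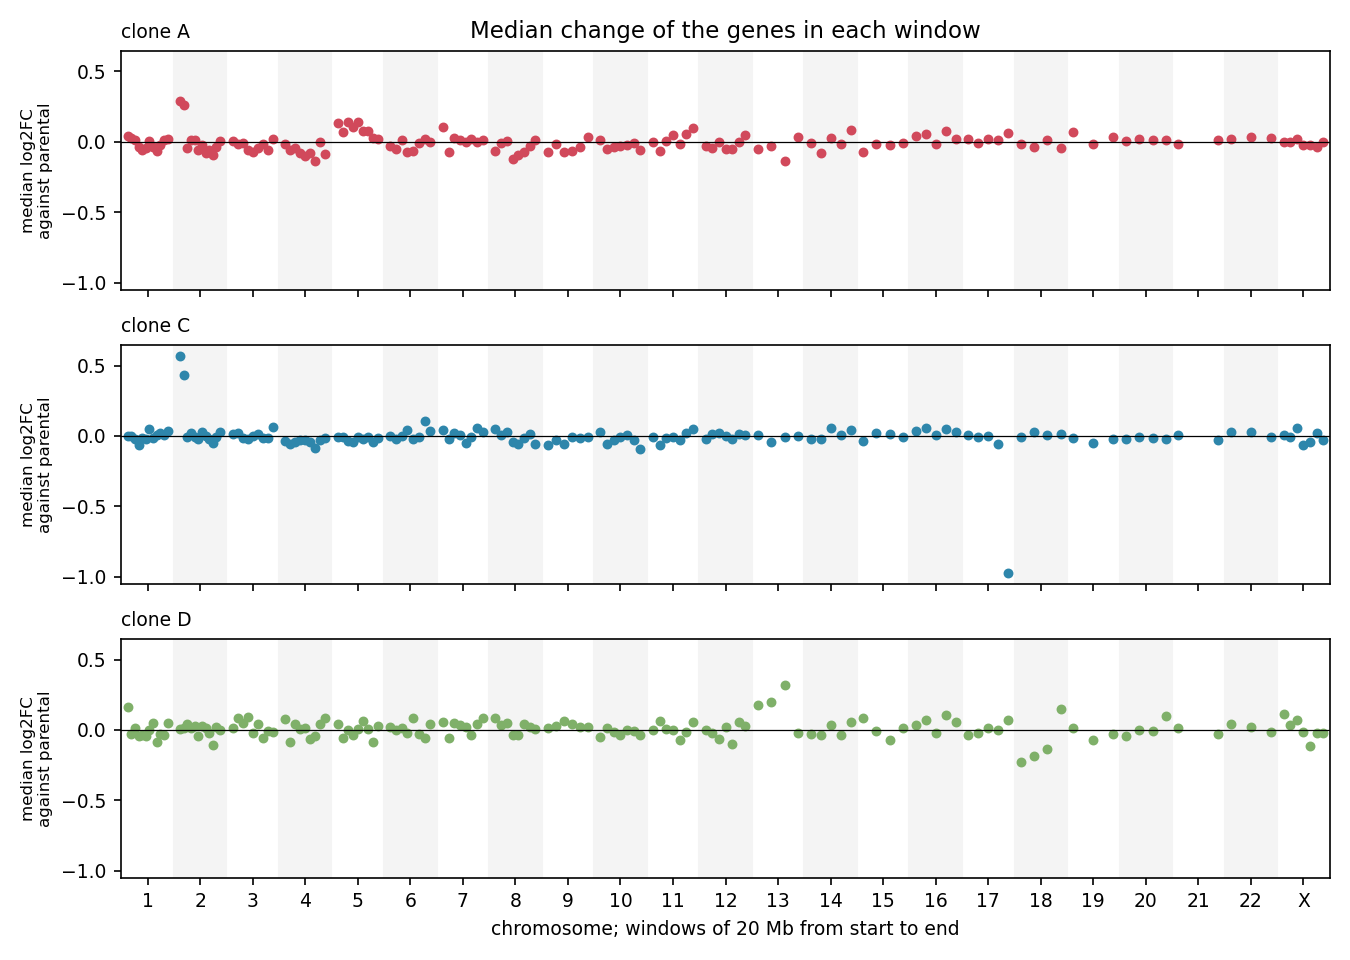
Median log2 fold change against parental cells of the genes in each 20 Mb window with 20 or more tested genes, in order along each chromosome, for clones A, C and D. The first 2 windows of chromosome 2 stand out in clone A (0.29 and 0.26) and in clone C (0.57 and 0.43), and not in clone D.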

How the data were processed

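RNA of human KMS12PE myeloma cells was measured in 8 libraries, of which the 2 of clone A and the 2 of the parental population are compared here. The authors deposited whole-number counts for each gene symbol and library. The submitters' processing notes name the hg38 build. Which aligner, counter and annotation were used, and whether strand was counted, is not given in the sources used here. Of 12592 genes, all of which the values show at 5 or more counts in 4 or more libraries, 12279 passed filterByExpr and 313 did not. The counts were scaled with TMM and fitted over the 8 libraries with 1 mean per population by edgeR 4.0.16 in R 4.3.3 (estimateDisp, glmQLFit, glmQLFTest, 2-sided), adjusted with Benjamini-Hochberg over all 12279 genes and called under 0.05. An adjusted p without a named test is from this fit. The biological coefficient of variation was 11.9%, and 5.27% with the block. DESeq2 1.42.0 was an alternative. The scripts were tested on simulated data. The fit over all 8 libraries lets the 4 populations share 1 estimate of the spread.

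The labels give all populations replicates 1 and 3. The difference of replicate 3 from replicate 1 correlated across genes in all 6 pairs of populations (0.314 to 0.630). The lowest value, 0.314, was that of parental cells with clone A. Replicate 3 also had more counts than replicate 1 in each population. The correlation therefore does not show whether the numbers mark paired cultures. Values with the block stand beside a result where they change its call.

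The members and the gene lists were chosen with earlier results of these data known. Named are the 12 largest rises and 12 largest falls among called genes whose mean log2 CPM was 3 or more and whose libraries do not overlap, a fixed set of BCL2 family and drug target genes whether called or not, the called genes of each list (4 at most), genes that set clone A apart from clones C and D, called genes with 0 counts in 1 population, and called genes of shifted windows. The other called genes, the genes called only with the block and those on chromosomes 2, 5 and 7 were chosen after their values were seen, as were the separate contrasts with clones C and D. Windows stand in for the chromosome arms that were planned, since no centromere positions were used here. Folds against 0 counts are lower bounds against 3 counts over the population, and intervals are exact at 95%. Both cover counting error only. Some genes of the sterol list enter its counts and median but are not reported here by name.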

Additional observations from a re-analysis of the deposited data

Results flagged for a closer look

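In 9 genes whose mean log2 CPM was 3 or more, clone A and another resistant clone were called on opposite sides of the same parental libraries. The difference between the clones also passed edgeR's test. Differences are given on the fitted log2 scale as clone A minus the other clone. Against clone D the difference was 7.69 for CCR9 (adjusted p = 2.64e-07), 4.66 for LEFTY2 (1.74e-07), 3.38 for FBP1 (0.000198) and 2.93 for THEMIS (9.86e-06), all higher in clone A and lower in clone D than in parental cells. For IGLL5 and IGLC1 it was 13.42 and 10.60 (5.71e-07 and 1.29e-07), values that depend on the prior count because clone D had 0 and 1 counts. In the other direction SNTB1 gave -3.16 (9.86e-06) and ZBTB38 gave -1.50 (0.000146), both lower in clone A and higher in clone D. FN1 gave -1.81 against clone C (0.000159), where it was higher than in parental cells. Genes with a lower mean are outside the 9, and some of them met the same rule against clone D. AFAP1-AS1 gave -8.30 (1.97e-07), lower in clone A and higher in clone D than in parental cells. LIX1, CALCRL and MVB12B were higher in clone A and lower in clone D.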

How the results depend on the processing

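Of the 55 genes called in clone A against parental cells 0 reversed under any alternative run, but calls were lost. DESeq2 lost 3 (ARHGAP24, CTD-2130O13.1 and RNASEH1), upper-quartile factors 3 (ASS1, SAMD9L and RNASEH1), the filter of 10 counts 4 of the 32 it tested (INSIG1, ASS1, SAMD9L and RNASEH1), a fit of only the libraries compared 4 (RALGPS2, ARHGAP24, CTD-2130O13.1 and RNASEH1), and leaving out any 1 library 33. With DESeq2 45 genes were higher and 51 lower, and with at least 10 counts in every library compared 15 and 13. That filter gave 124 genes higher in clone A than in clones C and D. RLE or upper-quartile factors, no filter, or only the libraries compared kept every count within 1.5 times the main one. Of the other 73 named genes 50 were newly called with the replicate block, beside 3.65% of all genes called with it. Genes of the lists were named because that fit called them, so the 50 add no support. With the replicate block the counts against parental cells were 227 and 221. They were 730 and 670 against clones C and D, and 45 and 51 for clone A apart from each other population. With 1 library left out they were 11 to 13 and 9 to 13, 86 to 238 and 37 to 130, and 2 to 10 and 2 to 10. A fit that leaves 1 library in a population assumes that it varies like the others. Without the block 891 genes had an unadjusted p under 0.05. No scaling moved the median of all genes by over 0.1. The depth of the parental libraries limits low genes: 3 counts there are 0.471 to 0.527 CPM.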
